A study of Mus musculus with 8 samples.

Results

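Expression of 8 cell cycle genes, discussed together for their link to the enamel knot, was compared between Foxi3 conditional knockout (cKO) and wild-type molar epithelium of mouse embryos. The genes were set by name and by their Ensembl identifiers: Cdkn1a (ENSMUSG00000023067), Cdkn1b (ENSMUSG00000003031), Cdkn1c (ENSMUSG00000037664), Ccnd1 (ENSMUSG00000070348), Ccnd2 (ENSMUSG00000000184), Ccnd3 (ENSMUSG00000034165), Ccne1 (ENSMUSG00000002068) and Mki67 (ENSMUSG00000031004). All 8 were among the 26165 genes of the deposited table. Only 3 of them, the CDK inhibitors, act in cell cycle exit. The other genes encode 4 cyclins, which drive the cycle, and Mki67, which marks cycling cells.

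The cKO group comprised 4 pools labelled K14-cre43;Foxi3-floxed, and the series' design text gives the second Foxi3 allele as null. The wild-type group comprised 4 pools whose genotype label reads Foxi3+/floxed, so both groups carried a floxed allele. The control label names no Cre and no null allele, so the contributions of Cre, null allele and deletion in the epithelium cannot be told apart. In both groups each pool held the dispase-separated epithelium of the lower molars of 5 embryos at E13.5. The Cre is driven by the keratin 14 promoter, which is active in epithelium. Neither the deletion nor the markers of the tissue were checked, since the identifiers of the other genes were not paired with symbols in the sources used here.

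The enamel knot is a cluster of epithelial cells that forms at the tip of the tooth bud, secretes growth factors and leaves the cell cycle while the epithelium around it goes on dividing. Whether a knot had formed in these pools at E13.5 was not checked. The CDK inhibitor p21, the product of Cdkn1a, is a classical marker of its exit from the cycle. D cyclins with CDK4 or CDK6, and then E cyclins with CDK2, phosphorylate the retinoblastoma protein and so let a cell enter S phase. The CDK inhibitors oppose these kinases.

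None of the 8 genes was called different between the genotypes (limma, adjusted p under 0.05 over all genes), against 1.31% of all genes, 0.688% higher and 0.619% lower in the cKO. At an unadjusted limma p under 0.05 the count was 3 of 8, all higher in the cKO, against 9.67% of all genes in either direction and 4.83% higher. These 3 were Cdkn1a, Ccnd1 and Ccnd3. Since the 8 genes were chosen with earlier results of these arrays known, the counts here are a description. The difference was positive for 7 of the 8 genes and negative for Cdkn1c, whose sign turned after the arrays were centred on their medians. Over all genes, 42.2% of the differences were positive. The 8 genes gave brighter signals than most genes, and the background of all genes was not matched for signal. The median difference on the log2 scale, cKO minus wild type, was 0.067 over the 8 genes and −0.018 over all genes. In bulk epithelium, a change in the number of cells of a type and a change in RNA per cell cannot be told apart.

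Wild-type replicate 2 differed from the other arrays as a whole. Median log2 expression was between 5.25 and 5.296 on 7 arrays and 5.44 on wild-type replicate 2, which received the lowest array weight (0.198, against 0.643 to 1.79). Its values were also less spread, with an interquartile range of 2.90 against 3.11 to 3.18 on the other arrays. Across genes, any 2 arrays correlated at 0.989 to 0.996, and no 2 arrays held identical values. All 8 genes gave bright signals, with means between 7.30 and 11.1 on the log2 scale, at or above the 79.2nd percentile of all genes. Their signals come from different probes and are not set against each other.

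RefSeq promoter windows (GRCm38.p6), each from 250 bases before an annotated start to 50 bases from it on, were found for 5 of the 8 genes. There were 7 windows, since Cdkn1a and Ccnd3 have 2 annotated starts each. Both strands were searched for the E2F motif TTTNGCGC, the cell cycle homology region (CHR) TTTGAA of late cell cycle genes, the CCAAT box CCAAT, the GC box GGGCGG, the forkhead core TGTTTAC and the half-site of p53, the tumour suppressor that induces Cdkn1a. No match position fell within another motif's match. Windows are shown for Cdkn1a, which had the largest difference, for Ccnd3, which had the smallest p, and for Mki67, the marker of cycling cells. For Cdkn1a and Ccnd3 the window of the first start is shown. Capitals mark the motif matches. The windows shown lie at chr17:29090729-29091028 (plus strand), chr17:47504801-47505100 (plus strand) and chr7:135716330-135716629 (minus strand). The window of the second start lies at chr17:29093519-29093818 for Cdkn1a and at chr17:47593217-47593516 for Ccnd3 (both plus strand). That of Cdkn1a held 2 GC boxes and no p53 half-site. That of Ccnd3 held 1 CCAAT box, 2 GC boxes and no forkhead core. Which start is used in this tissue was not tested.
Cdkn1a: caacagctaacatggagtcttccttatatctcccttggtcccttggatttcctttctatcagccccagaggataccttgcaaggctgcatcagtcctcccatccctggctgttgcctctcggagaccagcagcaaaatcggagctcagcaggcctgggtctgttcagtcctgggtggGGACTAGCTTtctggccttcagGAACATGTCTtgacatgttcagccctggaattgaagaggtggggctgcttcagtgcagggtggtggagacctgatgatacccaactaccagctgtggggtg
Ccnd3: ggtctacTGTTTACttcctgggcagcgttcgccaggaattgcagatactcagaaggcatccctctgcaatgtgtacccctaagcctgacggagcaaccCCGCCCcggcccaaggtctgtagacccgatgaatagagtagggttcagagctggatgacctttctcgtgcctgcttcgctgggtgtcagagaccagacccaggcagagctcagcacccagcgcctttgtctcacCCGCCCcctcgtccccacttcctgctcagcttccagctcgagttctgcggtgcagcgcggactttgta
Mki67: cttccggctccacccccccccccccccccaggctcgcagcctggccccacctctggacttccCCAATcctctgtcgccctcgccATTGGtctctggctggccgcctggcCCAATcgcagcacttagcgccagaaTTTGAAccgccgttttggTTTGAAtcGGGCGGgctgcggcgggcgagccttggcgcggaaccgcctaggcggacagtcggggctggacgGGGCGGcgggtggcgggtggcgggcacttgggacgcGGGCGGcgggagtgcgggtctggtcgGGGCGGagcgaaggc

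In the Cdkn1a window the capitals are 2 p53 half-sites, whose first bases lie at −73 and −51, counted from 0 at the annotated start. A p53 half-site was found in 1 of the 7 windows and in 8.36% of the 32851 windows of all genes. Only exact matches of the half-site pattern were counted. No window of the 8 genes held 2 such half-sites without a gap, which 0.00913% of all windows did. The 10 bases directly after the Cdkn1a half-site at −51 miss the pattern only at their first base. In the Ccnd3 window the capitals are a forkhead core at −243 and 2 GC boxes on the opposite strand. The forkhead core was found in 1 of the 7 windows and in 3.65% of all windows. In the Mki67 window they are 2 CHR matches, 3 CCAAT boxes and 4 GC boxes. CHR was found in 1 of the 7 windows against 17.9% of all windows, CCAAT in 3 against 37.4%, and the GC box in 6 against 35.7%. G and C made up 54.7% to 76.0% of the bases of the 7 windows, and the windows of all genes were not matched for this. The E2F motif was in none of the 7 windows and in 1.38% of all windows. A match is a run of letters and was not tested as a binding site.

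**Figure D1:**
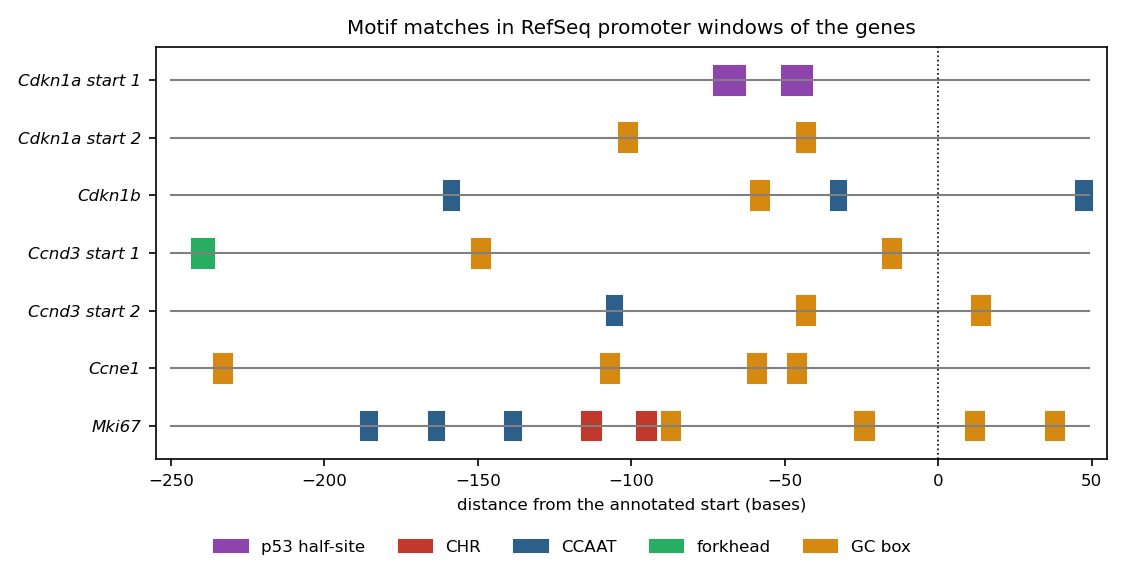
Motif matches in the 7 promoter windows, with the distance from the annotated start in bases on the x axis and 1 line per window. The forkhead core appears in 1 window of Ccnd3, the p53 half-sites in 1 window of Cdkn1a and the CHR matches in the window of Mki67, while GC boxes are found in 6 windows.

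Cdkn1a encodes p21, which binds and blocks cyclin-CDK complexes. Its log2 expression was 7.46, 7.36, 7.32 and 7.69 in cKO replicates 1 to 4, against 7.01, 6.99, 7.44 and 7.11 in wild-type replicates 1 to 4. Of the cKO arrays, 2 lay above every wild-type array, and 3 wild-type arrays lay below every cKO array. The groups overlapped through wild-type replicate 3, whose value was above those of cKO replicates 2 and 3. The means were 7.46 ± 0.16 in the cKO and 7.14 ± 0.21 in wild type (SD, n = 4 each), the widest spread of the 8 genes in both groups.

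The difference for Cdkn1a was 0.32 on the log2 scale (SE 0.12, limma adjusted p = 0.39), or 1.25-fold, with a 95% interval of 1.04-fold to 1.505-fold. The interval is that of this gene alone, without adjustment for the number of genes tested. An exact permutation test over the 8 arrays gave an unadjusted p = 0.086 (two-sided). At this gene's SE, a difference of 0.63 or more (1.54-fold) would have been called. The difference was 0.42 without wild-type replicate 3 (limma adjusted p = 0.14) and 0.27 without wild-type replicate 2 (limma adjusted p = 0.51). By its size, the difference stood at the 96.5th percentile of all genes.

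Cdkn1b encodes p27, the inhibitor that accumulates in resting cells. Log2 expression was 8.09, 8.13, 8.21 and 8.22 in cKO replicates 1 to 4, against 8.16, 7.97, 8.14 and 8.13 in wild-type replicates 1 to 4. The lowest array was wild-type replicate 2, while the other wild-type arrays lay inside the range of the cKO arrays. The difference was 0.059 (SE 0.057, limma adjusted p = 0.81), with a 95% interval of 0.95-fold to 1.14-fold. Without wild-type replicate 2 it was 0.016 (limma adjusted p = 0.95).

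Cdkn1c encodes p57, an imprinted inhibitor of the same family. Its log2 expression was 8.67, 8.58, 8.65 and 8.65 in cKO replicates 1 to 4, against 8.68, 8.65, 8.67 and 8.66 in wild-type replicates 1 to 4. The wild-type values spanned a narrow range inside or just above that of the cKO values. Between the genotypes it differed by −0.024 (SE 0.038, limma adjusted p = 0.88), or by 0.010 after the arrays were centred on their medians. Its 95% interval ran from 0.92-fold to 1.05-fold, and its SE was lower than that of all but 2.05% of genes. Without cKO replicate 2 the difference was −0.0058.

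**Figure D2:**
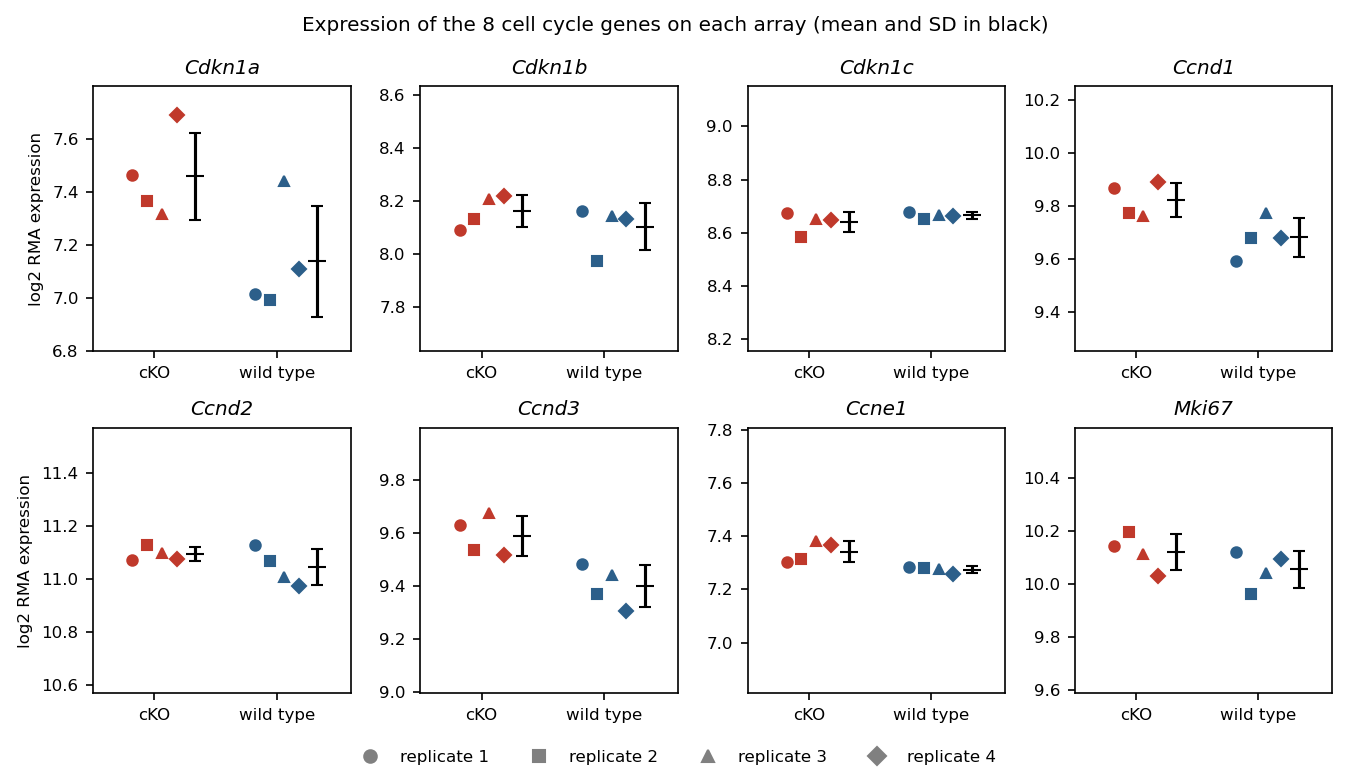
Log2 RMA expression of the 8 genes on each array, cKO left of wild type, with 1 symbol per replicate and the mean and SD (n = 4 each) in black; every panel spans 1 log2 unit. Cdkn1a shows the widest scatter, with wild-type replicate 3 at 7.44 beside the cKO arrays, and the groups are separate for Ccnd3 and Ccne1.

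The D cyclins link growth signals to the cell cycle, and Ccnd1 is widely used as a readout of such signals. Log2 expression was 9.87, 9.77, 9.76 and 9.89 in cKO replicates 1 to 4, against 9.59, 9.68, 9.77 and 9.68 in wild-type replicates 1 to 4. As for Cdkn1a, wild-type replicate 3 was the highest wild-type array and joined the ranges, here by 0.012 on the log2 scale, and cKO replicate 4 was the highest of all. The difference was 0.14 (SE 0.054, limma adjusted p = 0.42), or 1.103-fold, with a 95% interval of 1.01-fold to 1.201-fold. The exact permutation test over the arrays gave an unadjusted p = 0.086.

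Ccnd2 encodes cyclin D2, which pairs with the same kinases as cyclin D1. Its log2 expression was 11.07, 11.13, 11.10 and 11.08 in cKO replicates 1 to 4, against 11.13, 11.07, 11.01 and 10.97 in wild-type replicates 1 to 4. The cKO arrays lay close together, 3 of them inside the wild-type range and cKO replicate 2 level with its highest array. The difference was 0.049 (SE 0.046, limma adjusted p = 0.80), with a 95% interval of 0.96-fold to 1.11-fold.

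Ccnd3, the third D cyclin, had the smallest p of the 8 genes. Log2 expression was 9.63, 9.53, 9.67 and 9.52 in cKO replicates 1 to 4, against 9.48, 9.37, 9.44 and 9.31 in wild-type replicates 1 to 4. Every cKO array was above every wild-type array, by a margin of 0.033. The means were 9.59 ± 0.075 in the cKO and 9.40 ± 0.079 in wild type (SD, n = 4 each). The difference was 0.19 (SE 0.057, limma adjusted p = 0.26), or 1.14-fold, with a 95% interval of 1.04-fold to 1.25-fold. By unadjusted p (0.010, limma) Ccnd3 was the 1041st of all genes. A difference of 0.31 would have been called at its SE. The exact permutation test gave an unadjusted p = 0.029, the smallest that 4 arrays against 4 allow. Any gene whose groups do not overlap gets this value, and Ccne1 had it too.

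Ccne1 encodes cyclin E1, which acts with CDK2 at the entry to S phase. Its log2 expression was 7.30, 7.32, 7.38 and 7.37 in cKO replicates 1 to 4, against 7.28, 7.28, 7.28 and 7.26 in wild-type replicates 1 to 4. The groups did not overlap, but the margin was 0.018 and the difference of the means 0.068 (SE 0.039, limma adjusted p = 0.66), or 1.05-fold, with a 95% interval of 0.99-fold to 1.11-fold. Separation of this kind was found in 2 of the 8 genes, Ccnd3 and Ccne1, both higher in the cKO, against 7.85% of all genes in either direction and 4.14% higher. The 8 genes were chosen with earlier results of these arrays known, so the count is a description.

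Mki67 encodes the Ki-67 protein, present in dividing cells and lost in resting ones. Log2 expression was 10.14, 10.20, 10.12 and 10.03 in cKO replicates 1 to 4, against 10.12, 9.96, 10.04 and 10.10 in wild-type replicates 1 to 4. The lowest array was again wild-type replicate 2, and the ranges of the other arrays overlapped. The difference was 0.065 (SE 0.054, limma adjusted p = 0.78), or 1.05-fold, with a 95% interval of 0.96-fold to 1.14-fold. Without wild-type replicate 2 it was 0.035 (limma adjusted p = 0.89).

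**Figure D3:**
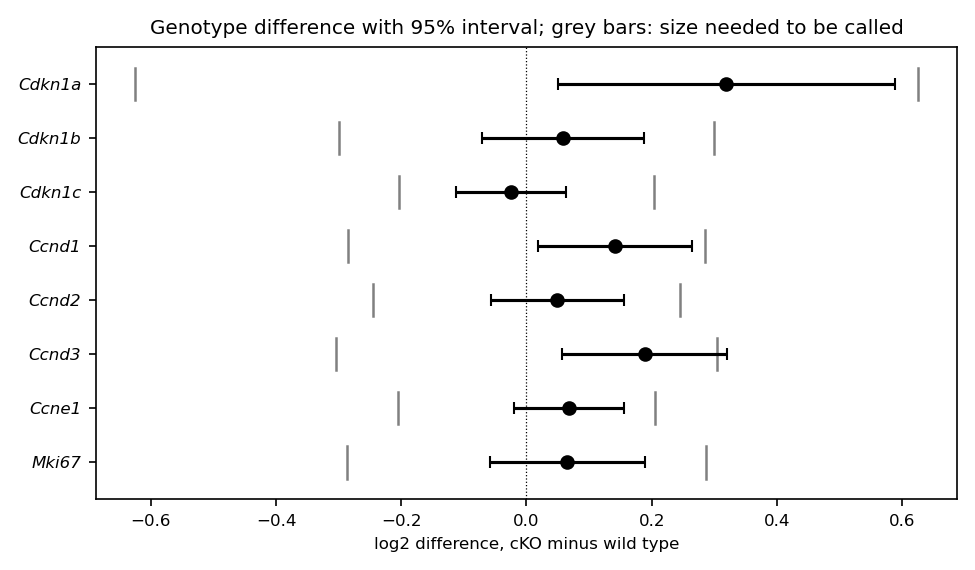
Log2 difference, cKO minus wild type, for each gene (points) with its 95% interval (bars), beside the size that would have been called at that gene's SE (grey ticks, both signs). The intervals of Cdkn1a, Ccnd1 and Ccnd3 lie above 0, and every point lies inside its pair of ticks.

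The intervals bound the size of change in the average of the pooled epithelium that these arrays leave possible for each gene. A change limited to the enamel knot would be averaged with the rest of the epithelium, so its size there is not bounded. In the fit to the deposited values, the intervals reached no further than 1.25-fold in either direction for any gene other than Cdkn1a, for which the upper bound was 1.505-fold. The smallest difference that would have been called ranged from 0.20 for Cdkn1c and Ccne1 to 0.63 for Cdkn1a. RMA narrows fold changes, which bears on all of these ratios.

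Whether members of a family changed unequally was tested with the within-array log2 difference of 2 genes, in 6 pairs. Cdkn1a minus Cdkn1c averaged −1.18 ± 0.16 in the cKO and −1.53 ± 0.21 in wild type (SD, n = 4 each). Its shift of 0.34 gave an exact permutation p = 0.057 (two-sided), and 0.17 after Benjamini-Hochberg adjustment over the 6 pairs. Cdkn1a minus Cdkn1b shifted by 0.26, and Cdkn1b minus Cdkn1c by 0.083, each with an adjusted exact p = 0.17. Among the D cyclins, Ccnd2 minus Ccnd3 averaged 1.51 ± 0.084 in the cKO and 1.64 ± 0.058 in wild type (SD, n = 4 each), a shift of −0.14 (adjusted exact p = 0.17). Ccnd1 minus Ccnd2 shifted by 0.092 (adjusted exact p = 0.38) and Ccnd1 minus Ccnd3 by −0.048 (adjusted exact p = 0.54). No pair passed the threshold. With 4 arrays in each group the smallest exact p is 0.029, which adjusts to 0.17 for a single pair, and 4 of the 6 pairs would have to reach it for any to be called. A shift in a single pair could therefore not be called. Leaving out wild-type replicate 1 gave 0.035 for Ccnd1 minus Ccnd2 and −0.10 for Ccnd1 minus Ccnd3. Leaving out wild-type replicate 2 gave 0.045 for Cdkn1b minus Cdkn1c.

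**Figure D4:**
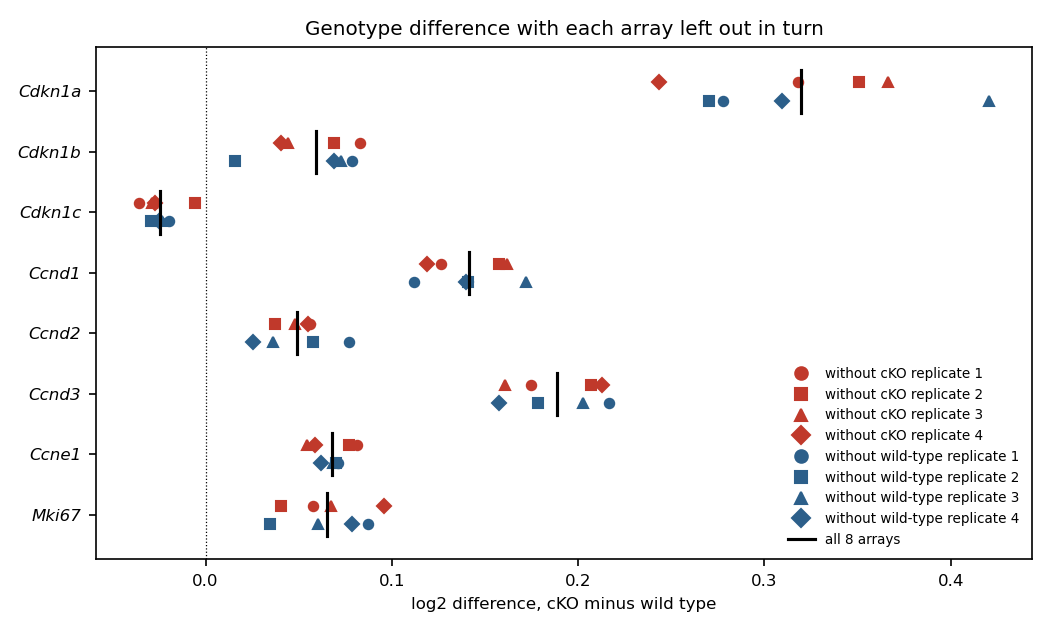
Log2 difference, cKO minus wild type, for each gene with all 8 arrays (black bar) and with each array left out in turn (red for cKO, blue for wild type, 1 symbol per replicate). The difference of Cdkn1a moves most, between 0.24 without cKO replicate 4 and 0.42 without wild-type replicate 3, and no gene changes sign.

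The arrays that moved a gene most differed between genes. Leaving out wild-type replicate 2 gave the lowest value for Cdkn1b and Mki67. For Ccnd3 the range over the 8 omissions was 0.16 to 0.22, for Ccnd1 0.11 to 0.17, for Ccne1 0.055 to 0.081, for Ccnd2 0.025 to 0.077 and for Cdkn1c −0.036 to −0.0058. No gene was called in any of these fits.

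Genes outside the 8 could be grouped only by identifier, through 3 phase lists built from the mouse marker pairs of the scran package. Cdkn1b was in the G1 list, Ccnd3 in the S list and Ccnd1 in the G2M list, an assignment by the marker pairs that need not match a gene's textbook phase. The G1 list held 158 measured genes, 2 of them called lower and none higher (1.27% called), with a median difference of 0.023. The S list held 113, with 1 called lower and none higher (0.885%), and a median of 0.029. The G2M list held 118, with 2 called higher and none lower (1.69%), and a median of 0.043. These shares stand beside 1.31% of all genes called and a median of −0.018 over all genes. Without wild-type replicate 2 the medians were −0.0022 for G1, 0.0027 for S and 0.018 for G2M, against 0.0018 over all genes, so the sign of the G1 median rested on that array.

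By the correlation of deviations from the genotype means over the 8 arrays, the genes most like Cdkn1a were ENSMUSG00000076531 (Pearson r = 0.98, Spearman rho = 0.93) and ENSMUSG00000021103 (r = 0.97, rho = 0.93). Without wild-type replicate 3 and cKO replicate 4, r was 0.93 and 0.71. The genes most like Mki67 were ENSMUSG00000001517 and ENSMUSG00000024002 (both r = 0.98, rho = 0.98), with r = 0.94 and 0.97 without wild-type replicate 2 and cKO replicate 4. These genes were picked as the highest of all genes over few arrays, so no p is given. None of the 4 was called between genotypes, with limma adjusted p between 0.53 and 0.95.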

How the data were processed

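RNA of 4 cKO and 4 wild-type pools was measured on 8 Affymetrix arrays. The values are log2 expression per gene as deposited in 1 table, normalized by the authors with RMA (per the submitters' processing notes). Array model, genome build and RMA version are not given in the sources used here. The table holds 26165 unique Ensembl identifiers and no detection calls. All 8 columns were used. The symbols of the 8 genes came with their identifiers. No other identifier could be named, since the gene table used here has no Ensembl identifiers, so Foxi3, the planned lists by symbol and the markers of other cell types were not analysed here. The planned substitute, the phase lists of scran 1.30.0, hold the genes that are in 10 or more marker pairs of 1 phase and are marked as higher in 80% or more of these pairs.

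limma 3.58.1 (R 4.3.3) was fitted to every row with genotype as its single term and no filter, using lmFit and eBayes. Its two-sided p-values were Benjamini-Hochberg adjusted over the 26165 rows. Calls are rows whose adjusted p was under 0.05, and each difference is cKO minus wild type with its moderated SE. The steps were tested on simulated data. The smallest difference called is the t value of the largest unadjusted p among called genes (0.000629), times the gene's SE. The 8 genes and the lists were chosen with earlier results of these data known. All 8 genes are named, and of the other genes the most alike by correlation. The p-values measure the spread between pools, and the number of arrays limits the precision. Alternatives tried were the prior, the replicate number as a block, other normalizations, array weights, a filter on dim rows, an exact permutation test, a looser threshold and leaving out arrays.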

Additional observations from a re-analysis of the deposited data

Results flagged for a closer look

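In each group of 4 arrays, the highest and the lowest value of each of the 8 genes were checked for a gap to the other 3 arrays, 16 checks in all. Chance flags about 1 in 20 groups, and 1 was found. Cdkn1b was 7.97 in wild-type replicate 2, while the 3 remaining wild-type arrays lay between 8.13 and 8.16. That array also had the highest median and the lowest weight. Whether this had a part in its Cdkn1b value was not tested.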

How the results depend on the processing

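None of the 8 genes was called under any of 18 alternatives. The exact permutation test could not have called any, since its smallest adjusted p over all genes was 0.36, which leaves 17. Of the 18, leaving out wild-type replicate 2 together with cKO replicate 1, the arrays with the lowest weights, and the count by exact permutation were added after seeing the data. Of 17 alternatives for each difference, 4 leave it unchanged by construction. Under the other 13 the directions of 7 genes held, and Cdkn1c turned to 0.010 after centring the arrays on their medians (limma adjusted p = 0.98). The lowest limma adjusted p was 0.13 for Ccnd3, with the trend and robust prior. The 342 calls over all genes became 18 with the replicate number as a block, 196 with centring, 575 with array weights, 106 without that pair of arrays, and 119 to 303 with 1 array left out. Centring also moved the split of calls from 180 higher and 162 lower to 131 and 65. With the replicate block Cdkn1a had a limma adjusted p of 0.59, Ccnd1 of 0.68 and Ccnd3 of 0.33. No label states a pairing by number, and same-numbered arrays had correlations of deviations of −0.046, −0.090, −0.037 and 0.020. With 1 array left out, Ccnd1 minus Ccnd3 ranged from −0.10 to 0.00086, turning without cKO replicate 3, Ccnd1 minus Ccnd2 from 0.035 to 0.14, and Cdkn1b minus Cdkn1c from 0.045 to 0.12. Centring raised the list medians to 0.058 (G1), 0.064 (S) and 0.078 (G2M), with 0.017 over all genes. Leaving out 1 array gave −0.0022 to 0.037, 0.0027 to 0.050 and 0.018 to 0.055, the lowest each without wild-type replicate 2. For every setting, the cause was not tested. With no detection calls, signal over background is unknown.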
